A study of Mus musculus with 10 samples.

Results

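The genes described here encode enzymes that build purine and pyrimidine nucleotides from small precursors. They are Cad, Dhodh, Umps and Ctps of the pyrimidine pathway, Ppat, Paics, Gart, Atic and Impdh2 of the purine pathway, and Prps1, which supplies phosphoribosyl pyrophosphate (PRPP) to both. Of these 10 genes, 9 had a microarray probe set named for that gene alone, and where a gene had several, the one with the highest average signal on the 10 arrays stood for it. Impdh2 is not analysed here. The 9 genes all lay among the 11473 genes tested, of 18194 with a probe set. RNA came from primary B-cell lymphomas of Emu-myc;Suv39h1-/- mice, in which the Emu-myc transgene expresses Myc in the B-cell lineage and the histone H3 lysine 9 methyltransferase gene Suv39h1 is deleted. All cells, the untreated ones included, had been transduced with a Bcl2 retrovirus, selected with puromycin and grown on irradiated NIH 3T3 fibroblasts. The untreated group held 5 arrays and the ADR group 5, the latter from cells given 0.05 µg/ml Adriamycin (doxorubicin, a DNA-damaging topoisomerase poison) in culture for 5 days. There were 5 lymphomas (lymphoma_1032, lymphoma_4936, lymphoma_5783, lymphoma_7890 and lymphoma_9250, the order in which values are listed below), with 1 array per group from each, so the comparison was paired. The labels number the lymphomas and do not say that each came from a mouse of its own, so p-values measure the spread between these lymphomas.

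In background terms, the pyrimidine pathway starts at Cad, a single large protein that carries carbamoyl phosphate synthetase, aspartate transcarbamylase and dihydroorotase. Dhodh, in the inner mitochondrial membrane, then oxidises dihydroorotate, Umps makes UMP from orotate, and Ctps aminates UTP to CTP. In the purine pathway Ppat commits PRPP to the ring, Gart and Paics carry several of the middle steps, Atic closes the ring to give IMP, and Impdh2 turns IMP towards guanine nucleotides. These enzymes supply dividing cells with building blocks of RNA and DNA, and many of their genes, Cad among them, are known targets of Myc.

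Upstream sequences of 4 of the genes are shown because these genes bear the main patterns below: Cad had the widest spread between untreated lymphomas among the 9, Atic carries a Myc-type E-box close to its start, and Ppat and Paics are head-to-head neighbours whose ranges are compared below. Each is the 250 bases before an annotated start, 5′ to 3′ on the gene's strand, from RefSeq in GRCm38.p6. Capitals mark CACGTG (the E-box bound by Myc and Max), GGGCGG or its reverse complement (the GC box of Sp1).
Cad: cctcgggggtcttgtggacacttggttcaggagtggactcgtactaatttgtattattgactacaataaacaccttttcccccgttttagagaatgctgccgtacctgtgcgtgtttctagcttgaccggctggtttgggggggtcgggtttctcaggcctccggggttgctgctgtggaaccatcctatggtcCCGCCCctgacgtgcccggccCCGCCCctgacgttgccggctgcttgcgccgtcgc
Ppat: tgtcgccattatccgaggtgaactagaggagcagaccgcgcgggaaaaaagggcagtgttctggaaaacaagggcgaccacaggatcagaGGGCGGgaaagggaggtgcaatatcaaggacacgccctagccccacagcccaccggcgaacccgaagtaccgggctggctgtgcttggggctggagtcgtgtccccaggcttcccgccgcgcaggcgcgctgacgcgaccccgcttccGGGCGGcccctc
Paics: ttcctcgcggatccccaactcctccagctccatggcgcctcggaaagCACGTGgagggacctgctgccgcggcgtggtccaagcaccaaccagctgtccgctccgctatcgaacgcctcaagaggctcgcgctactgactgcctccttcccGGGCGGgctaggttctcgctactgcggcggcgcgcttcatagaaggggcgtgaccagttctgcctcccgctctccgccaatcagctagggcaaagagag
Atic: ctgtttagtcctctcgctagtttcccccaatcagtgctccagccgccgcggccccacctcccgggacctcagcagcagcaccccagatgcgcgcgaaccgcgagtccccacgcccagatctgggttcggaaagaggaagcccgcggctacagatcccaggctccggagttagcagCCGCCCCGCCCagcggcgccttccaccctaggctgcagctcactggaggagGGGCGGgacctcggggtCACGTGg
The windows are chr5:31054530-31054779, plus strand for Cad, chr5:76951579-76951828, minus strand for Ppat, chr5:76951052-76951301, plus strand for Paics and chr1:71556906-71557155, plus strand for Atic. The annotated spans of Ppat and Paics overlap by 277 bases, with their starts 276 bases apart on opposite strands. The E-box began 7 bases before the start of Atic and 203 bases before that of Paics. The GC boxes that begin 75 and 70 bases before the start of Atic overlap by 1 base. For Cad the start used was base 31054780, whereas its annotated span begins upstream of that, at 31054620. The printed Cad sequence thus lies partly inside that span, as do its marked GC boxes.

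The motifs were counted in the full windows, 250 bases before and 50 after each start, on both strands. RefSeq windows were found for 9 of the 10 genes, 10 windows in all because Ctps has several annotated starts, and Dhodh had none. The E-box CACGTG was in 3 of the 10 windows, those of Atic, Impdh2 and Paics, and in 7.15% of all 32851 promoter windows. GGGCGG, on either strand, was in 9 of the 10 windows, against 35.7% of all windows. The longer NRF-1 motif, GCGCA directly followed by TGCGC, was in 1 window, that of Ctps, 65 bases before its start, and in 0.971% of all windows. A match describes letters in a window and shows no binding.

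Before the gene values, lymphoma_1032 has to be described, since its arrays stood apart in several of the measures below. The median signal of its ADR array was 4.15 on the log2 scale, against 4.43 to 4.5 on the other arrays, its untreated array (4.44) included. Over the tested genes alone, the median of its ADR array was 7.1565, beside 7.1555 on the untreated array of lymphoma_4936. The defining B-lineage genes Cd79a and Cd79b, parts of the B-cell receptor, were measured on all arrays. Cd79a had signals of 8.80 and 7.98 in untreated and ADR cells of lymphoma_1032, below its signals in every other lymphoma (9.32 to 10.78). Cd79b had signals of 10.07 and 9.93 there, also its lowest within each group. The mean signal of the 11 B-lineage markers was 7.07 and 6.90 in lymphoma_1032 and 7.54 to 9.46 elsewhere. That mean includes Ms4a1 (5.093 and 4.787) and Rag1 (1.338 and 2.174), each lower there than in every other lymphoma. The untreated signals of Cd72 (9.242), Cd22 (9.435), Igll1 (5.915) and Vpreb1 (4.789) in lymphoma_1032 lay between those of other lymphomas. The 15 macrophage markers, 10 of them tested, had mean signals of 5.21 to 8.5 over untreated and 5.35 to 8.52 over ADR arrays, and of 7.51 and 8.07 in lymphoma_1032. For 3 of the 15, Cd68 (10.91 and 11.61), Fcgr1 and Itgam, both arrays of lymphoma_1032 lay above all other arrays. Csf1r (9.931 and 10.658) and Adgre1 (7.758 and 9.182) were lower there than in lymphoma_7890 (11.495 and 11.602, and 9.783 and 10.067). C1qa, C1qb, C1qc, Mrc1 and Cd163, which were not tested, had signals of 2.506 to 3.683 in lymphoma_1032. Of the 10 neutrophil markers, 2 had signals on both arrays of lymphoma_1032 above all other arrays: Lcn2 (12.76 and 13.58) and S100a8 (9.08 and 11.43, against 3.10 to 5.97 elsewhere). The granule genes Elane (4.00 and 4.16) and Mpo (3.42 and 3.05) and S100a9 (2.91 and 3.08) were low there. Of the 8 T-cell markers, Cd5 had signals of 11.26 and 10.71 in lymphoma_1032 and 8.195 and 8.386 in lymphoma_5783, while Cd3e was at 4.88 to 5.55 on all arrays. Of the fibroblast list, which the feeder cells could supply, 12 of 18 markers were tested, and its mean signal was 5.27 to 6.56 untreated and 5.32 to 6.98 with ADR. Vim (12.80 and 12.97) was the only marker of that list above all other arrays on both arrays of lymphoma_1032. In a bulk sample, fewer cells of a type and less RNA per cell cannot be told apart.

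The first comparison asks how 5 days of Adriamycin changed the transcripts of these enzymes in lymphomas without Suv39h1. None of the 9 passed the threshold: in the paired limma fit with Benjamini-Hochberg adjustment over all genes, 0 rose and 0 fell, and the background was 0% of genes in each direction. The largest average differences were higher signals of Gart and Cad, by 0.40 and 0.34 on the log2 scale, and a lower signal of Paics, by -0.23. On average 6 of the 9 were higher and 3 lower, where 44.8% of all genes were higher and 55.2% lower. Gart and Cad were higher in all 5 lymphomas, a pattern of 4.67% of genes, and 0 of the 9 were lower in all 5, a pattern of 4.82% of genes. In at least 4 lymphomas, 2 of the 9 were higher (Cad and Gart, 20.2% of genes) and 2 lower (Ppat and Paics, 26% of genes). At an unadjusted p below 0.05 there was 1 of the 9, Gart, higher, in which direction 3.97% of all genes passed, and 0 lower, against 4.51%. The untreated and ADR arrays of a gene overlapped for each of the 9, and they did not overlap for 0.357% of genes. The median difference was 0.05 over the 9 genes and -0.02 over all genes tested.

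Among the pyrimidine enzymes, Cad had untreated log2 signals of 7.30, 8.72, 7.95, 8.63 and 9.05 in lymphoma_1032, lymphoma_4936, lymphoma_5783, lymphoma_7890 and lymphoma_9250. With ADR they were 8.31, 8.94, 8.12, 8.77 and 9.23 in the same order. Each lymphoma was higher with ADR, lymphoma_1032 by far the most, at 1.02 against 0.14 to 0.21 in the others. The mean difference was 0.34 ± 0.38 (SD, n = 5), with a 95% interval of -0.03 to 0.71 and an adjusted p of 0.579 in limma, and without lymphoma_1032 it was 0.17. With the mean of all Cad probe sets it was 0.09. The second brightest Cad probe set gave 0.40 ± 0.44, with a lower signal in lymphoma_7890, and the remaining, dim probe set gave -0.47 ± 0.90, so the probe sets of Cad disagree.

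Dhodh, the mitochondrial step, had untreated signals of 6.79, 6.58, 7.06, 7.63 and 8.13 and ADR signals of 7.10, 7.15, 6.63, 7.69 and 8.05. It was lower with ADR in lymphoma_5783 and lymphoma_9250 and higher in the other 3, and lymphoma_9250 was the highest in both groups. The mean difference was 0.09 ± 0.38 (95% interval -0.29 to 0.46, adjusted p = 0.880 in limma). Umps, the UMP synthase, ranged from 7.74 to 8.91 untreated and from 7.99 to 8.61 with ADR, with a mean difference of 0.02 ± 0.37 (95% interval -0.35 to 0.39). Its difference was positive in lymphoma_1032 (0.53) and lymphoma_4936 (0.29) and between -0.33 and -0.17 in the others. Another Umps probe set above the median on all 10 arrays gave 0.32 ± 0.54, with 0.41 in lymphoma_5783, and the mean of all Umps probe sets gave 0.18. Ctps, the CTP synthase, ranged from 8.65 to 9.92 untreated and from 9.25 to 9.88 with ADR, with a mean difference of 0.05 ± 0.35 (95% interval -0.30 to 0.40). Its differences of 0.60 in lymphoma_1032 and 0.19 in lymphoma_9250 stood against -0.20 to -0.16 in the others.

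Among the purine enzymes, Gart, which catalyses 3 steps of the pathway in 1 protein, had untreated signals of 8.78, 9.60, 9.33, 10.04 and 10.21. Its ADR signals were 9.57, 9.99, 9.91, 10.08 and 10.38. The differences were 0.79, 0.40, 0.58, 0.04 and 0.17, all positive, and smallest in lymphoma_7890 and lymphoma_9250, where the untreated signal was highest. The mean was 0.40 ± 0.30 (SD, n = 5, 95% interval 0.07 to 0.72), with an unadjusted p of 0.0237 and an adjusted p of 0.565 in limma. All 4 probe sets of Gart had a higher mean with ADR, from 0.19 to 0.40, although the other probe sets were lower in 1 or more lymphomas.

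Paics, which carboxylates the purine intermediate and couples it to aspartate, had untreated signals of 11.58, 11.51, 11.76, 11.79 and 11.88 and ADR signals of 11.49, 11.57, 11.30, 11.49 and 11.55. It was lower with ADR in every lymphoma but lymphoma_4936, where the difference was 0.05. The mean difference was -0.23 ± 0.20 (SD, n = 5, 95% interval -0.50 to 0.05, adjusted p = 0.603 in limma). Its 3 probe sets gave mean differences of -0.26 to -0.21. Under centring of the arrays the difference in lymphoma_1032 turned from -0.09 to 0.09 and that in lymphoma_4936 from 0.05 to -0.08.

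Ppat, the amidotransferase of the committed step, had untreated signals of 7.72, 9.26, 8.56, 9.11 and 9.31 and ADR signals of 8.24, 9.04, 8.43, 8.81 and 9.13. It was higher with ADR in lymphoma_1032, by 0.52, and lower in each of the others, by -0.30 to -0.12. The mean difference was -0.06 ± 0.33 (95% interval -0.40 to 0.28), and without lymphoma_1032 it was -0.21. Atic, the last enzyme on the way to IMP, had untreated signals of 9.17, 10.27, 10.02, 10.41 and 10.42 and ADR signals of 9.64, 10.14, 10.41, 10.31 and 10.51. Lymphoma_1032 was the lowest in both groups. The mean difference was 0.15 ± 0.27 (95% interval -0.16 to 0.45), 0.07 without lymphoma_1032 and 0.21 without lymphoma_4936. Prps1, which makes PRPP, ranged from 8.82 to 9.78 untreated and from 9.04 to 9.63 with ADR. Its differences of -0.53 in lymphoma_5783, -0.14 in lymphoma_7890 and -0.21 in lymphoma_9250 stood against 0.35 in lymphoma_1032 and 0.41 in lymphoma_4936, with a mean of -0.02 ± 0.40 (95% interval -0.40 to 0.36). None of Ppat, Atic, Prps1, Umps and Ctps passed the threshold, with adjusted p from 0.744 to 0.977 in limma, and the intervals leave room for average differences of 0.28 to 0.46 upwards and of -0.40 to -0.16 downwards.

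**Figure D1:**
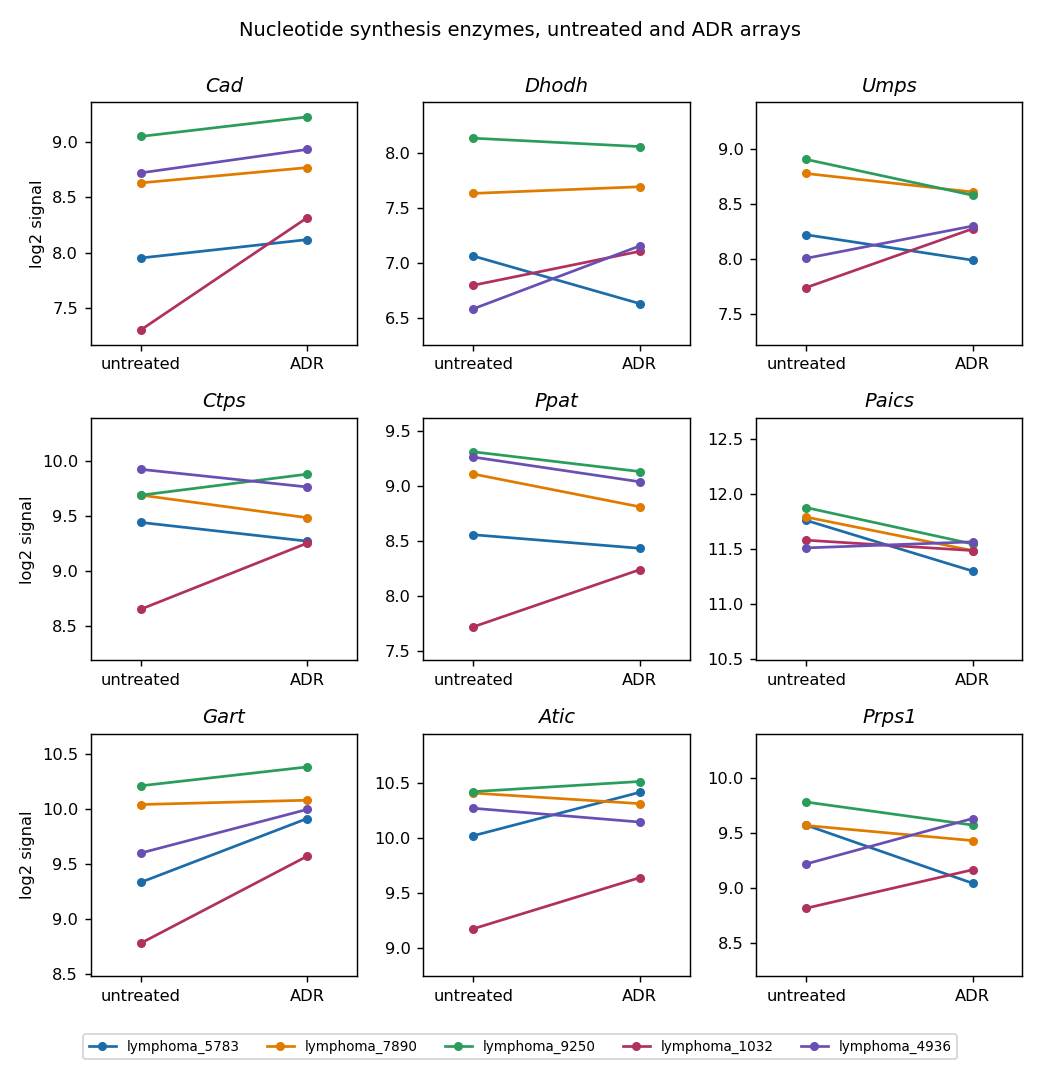
Log2 array signal of each enzyme on the untreated and the ADR array of each lymphoma, joined by a line per lymphoma, with the same axis span in every panel. The line of lymphoma_1032 starts lowest in 7 of 9 panels and climbs in 8, while Paics stays between 11.30 and 11.88 on all 10 arrays.

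**Figure D2:**
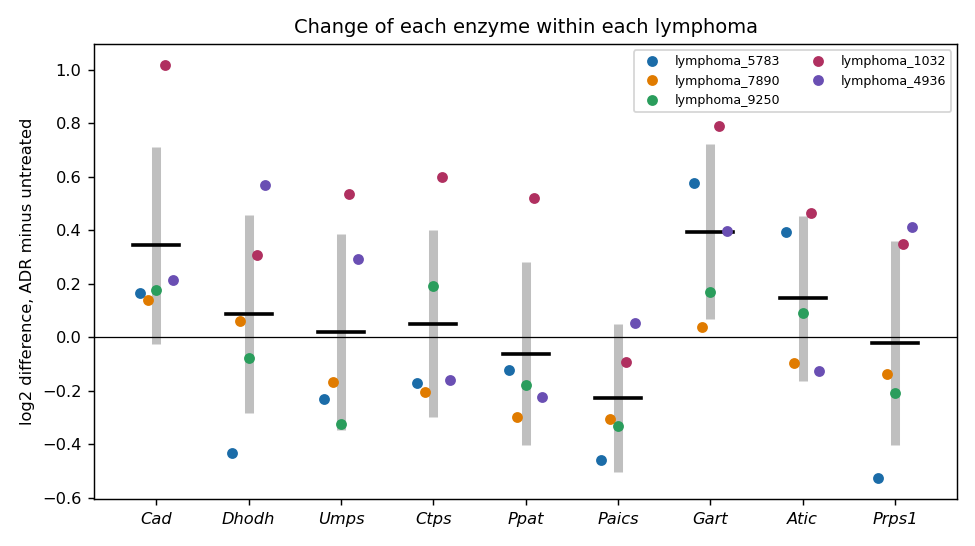
Log2 difference of ADR minus untreated for each enzyme, 1 point per lymphoma, with the mean as a black line and the 95% interval of the limma fit, not adjusted for the number of genes, as a grey bar. The points of lymphoma_1032 are the highest for 6 of the 9 enzymes, and for Cad its 1.02 lies apart from the 0.14 to 0.21 of the others.

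The sign of the difference varied between lymphomas. In lymphoma_1032, 8 of the 9 were higher with ADR, where 34.4% of all genes were, and Paics alone was lower. These directions depended on the probe set. The other probe sets of Atic and Dhodh differed there by -0.30 and -0.07. The dim probe sets of Cad and Ppat differed there by -1.81 and -0.26, and a dimmer Paics probe set by 0.07. In lymphoma_4936, 6 of the 9 were higher (56.4% of all genes), in lymphoma_9250 4 (47%), and in lymphoma_5783 and lymphoma_7890 3 each (53.7% and 48.5%). The mean difference over the 9 was 0.50 in lymphoma_1032, 0.16 in lymphoma_4936, -0.06 in lymphoma_9250, -0.09 in lymphoma_5783 and -0.11 in lymphoma_7890. The medians over all genes in those lymphomas were -0.17, 0.06, -0.02, 0.04 and -0.01. The 4 pyrimidine enzymes had means of 0.62 in lymphoma_1032 and 0.23 in lymphoma_4936, and between -0.17 and -0.01 in the others. The 4 purine enzymes had 0.42 in lymphoma_1032 and between -0.16 and 0.10 in the others. In lymphoma_1032 the 10 tested macrophage markers differed by 0.99 on average, the 3 tested neutrophil markers by 1.82 and the 10 tested B-lineage markers by -0.28. Over all markers with a probe set, the macrophage mean went from 7.51 to 8.07 and the neutrophil mean from 5.83 to 6.77. In lymphoma_5783, the enzymes differed by -0.09. The tested macrophage markers differed there by 1.24, the tested neutrophil markers by 0.80 and the tested fibroblast markers by 0.70. Over all markers with a probe set, the macrophage mean of lymphoma_5783 went from 7.371 to 7.589. Its neutrophil mean went from 4.496 to 4.772 and its fibroblast mean from 6.558 to 6.976. The untested macrophage markers C1qa, C1qb, C1qc and Mrc1 were lower there with ADR, by -2.936 to -1.3. Untested Cd163 was higher, by 0.413. The part of these cells in the enzyme values was not tested. The difference of Cad in lymphoma_1032 was 1.1 after quantile normalization and 1.21 after centring of the arrays, so it was as large under both scalings.

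The second comparison asks whether the level of an enzyme depended on the lymphoma, whatever the treatment. For 5 of the 9 enzymes it differed between lymphomas, in an F test of the same limma fit. Cad (adjusted p = 0.0248), Dhodh (0.0247), Ppat (0.0245), Atic (0.0372) and Gart (0.0408) passed, and the background was 26.9% of all genes. Ctps (0.0901), Umps (0.117), Prps1 (0.302) and Paics (0.852) did not pass. The SD between the lymphomas' means was 0.56 for Cad and for Dhodh, 0.52 for Ppat, 0.43 for Gart and 0.42 for Atic, against residual SDs of 0.25, 0.25, 0.23, 0.22 and 0.21. For Paics it was 0.08 against a residual SD of 0.19. Of these 5 calls, 5 were kept without lymphoma_5783, 4 without lymphoma_4936 and 3 without lymphoma_7890. Without lymphoma_1032, Cad alone passed, at a background of 10.3%. Without lymphoma_9250, 0 of the 9 passed at a background of 20.8%, and Cad had an adjusted p of 0.0705. Atic had an adjusted p of 0.632 without lymphoma_1032.

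Lymphoma_9250 was the highest of the untreated lymphomas for 8 of the 9 enzymes, the exception being Ctps, and 18.2% of all genes had that pattern. For Cad, Ppat and Atic this depended on the probe set. Another one, above the median on all 10 arrays, had lymphoma_7890 highest. Lymphoma_7890 stood at 8.77 against 8.73 in lymphoma_9250 for Cad, 7.98 against 7.89 for Ppat and 8.41 against 7.81 for Atic. Other such probe sets of Dhodh, Umps, Paics and Gart kept lymphoma_9250 highest. Lymphoma_1032 was the lowest untreated one for 7 of the 9, the exceptions being Dhodh and Paics, where lymphoma_4936 was lowest, and 25.4% of all genes had that pattern. From the lowest to the highest untreated lymphoma, the signal differed 3.38-fold for Cad, 3.01-fold for Ppat, 2.93-fold for Dhodh and 2.69-fold for Gart, and only 1.29-fold for Paics. Ppat and Paics, whose upstream sequences are printed above, thus start 276 bases apart and differed in this range by 1.59 and 0.37 on the log2 scale. Neighbours in these orders were often close: lymphoma_9250 and lymphoma_4936 differed by less than the residual SD for untreated Ppat, and lymphoma_7890 and lymphoma_9250 for untreated Ctps and Atic. The gap from lymphoma_1032 to the next lymphoma was 0.84 for Ppat, 0.85 for Atic, 0.79 for Ctps and 0.65 for Cad, more than 2 residual SDs in each. That gap was 0.553 for Gart, 0.402 for Prps1 and 0.266 for Umps, beside residual SDs of 0.22, 0.257 and 0.247.

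**Figure D3:**
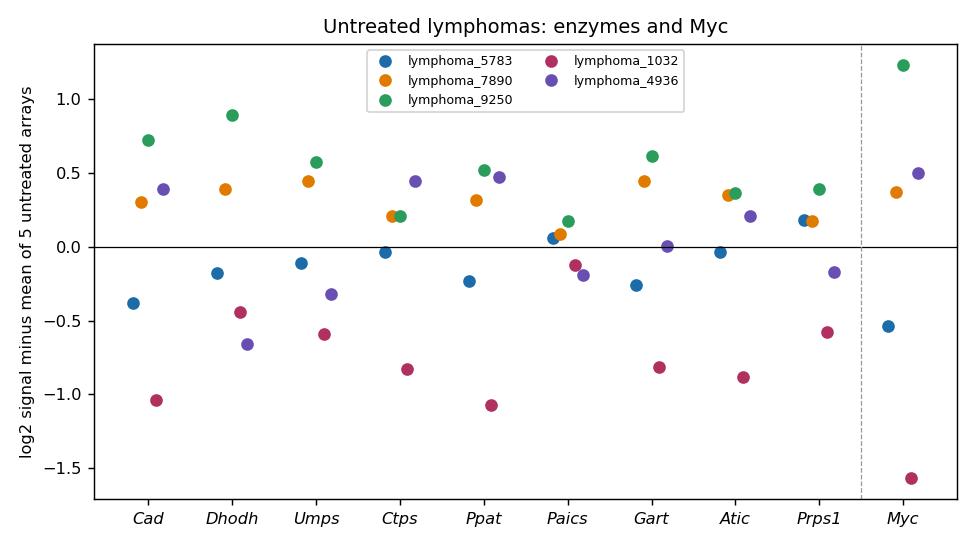
Untreated log2 signal of each enzyme and of Myc in each lymphoma, minus the mean of the 5 untreated arrays, offset sideways for legibility. Lymphoma_1032 is lowest for Myc and for 7 of 9 enzymes and lymphoma_9250 is highest for Myc and for 8 of 9, while the points of Paics lie within 0.37 of each other.

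Myc, the oncogene of this model and a known regulator of these genes, had untreated signals of 11.89 in lymphoma_9250, 11.15 in lymphoma_4936, 11.03 in lymphoma_7890, 10.12 in lymphoma_5783 and 9.09 in lymphoma_1032. Cad and Ppat had exactly this order of untreated lymphomas, as did 1.17% of all genes. At the second brightest probe sets of Cad and Ppat this order was not kept, with lymphoma_7890 above lymphoma_9250 and lymphoma_4936. At the probe sets used here, lymphoma_4936 and lymphoma_7890 differed by less than the residual SD for Myc, Cad and Ppat. With ADR, Myc had 11.96 in lymphoma_9250, 11.13 in lymphoma_7890, 11.08 in lymphoma_4936 and 9.84 in lymphoma_1032, with lymphoma_5783 next above the lowest, an order shared by Gart and by 3.81% of genes. The other probe sets of Gart did not have that order. Myc itself differed between lymphomas (adjusted p = 0.00702 in the limma F test). Its difference with ADR was 0.75 in lymphoma_1032 and 0.88 in lymphoma_5783, where the mean of the 9 enzymes differed by 0.50 and by -0.09. With only 5 lymphomas no correlation was computed. The 5 genes outside the set whose centred signals over the 10 arrays were nearest the mean of the 9 enzymes were Naf1, an assembly factor of H/ACA ribonucleoproteins, Ptcd3, a mitochondrial ribosome protein, Supt16, a subunit of the histone chaperone FACT, Set, another histone chaperone, and Ntmt1, an N-terminal methyltransferase. Their root mean square distances were 0.08 to 0.09 on the log2 scale, over arrays that share lymphomas in pairs.

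With all 5 lymphomas counted, the lymphomas were closer together with ADR than without it for these enzymes, and less clearly so without lymphoma_1032. The SD over the 5 lymphomas was lower in the ADR group for 9 of the 9, against 48.7% of all genes. The median SD of the 9 was 0.52 untreated and 0.29 with ADR, while over all genes it was 0.35 and 0.36. For Gart it was 0.57 and 0.29, for Umps 0.50 and 0.25, for Ppat 0.67 and 0.38 and for Cad 0.70 and 0.45. Without lymphoma_1032 the SD was lower with ADR for 6 of the 9, against 54.3% of genes, and for Cad it was 0.46 untreated and 0.47 with ADR. For Gart (0.40 and 0.20) and Umps (0.43 and 0.29) it was still lower, and for Ctps (0.20 and 0.27) and Prps1 (0.23 and 0.26) it was higher. The median SD of the 9 without lymphoma_1032 was 0.35 untreated and 0.27 with ADR, beside 0.30 and 0.28 over all genes. Of the 9 genes, 6 were lowest in untreated lymphoma_1032 and also had their largest difference there (Cad, Umps, Ctps, Ppat, Gart and Atic), against 6.85% of all genes. A low untreated signal enters both its difference and the untreated SD, so these descriptions are not independent of each other, and no test was made of them.

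**Figure D4:**
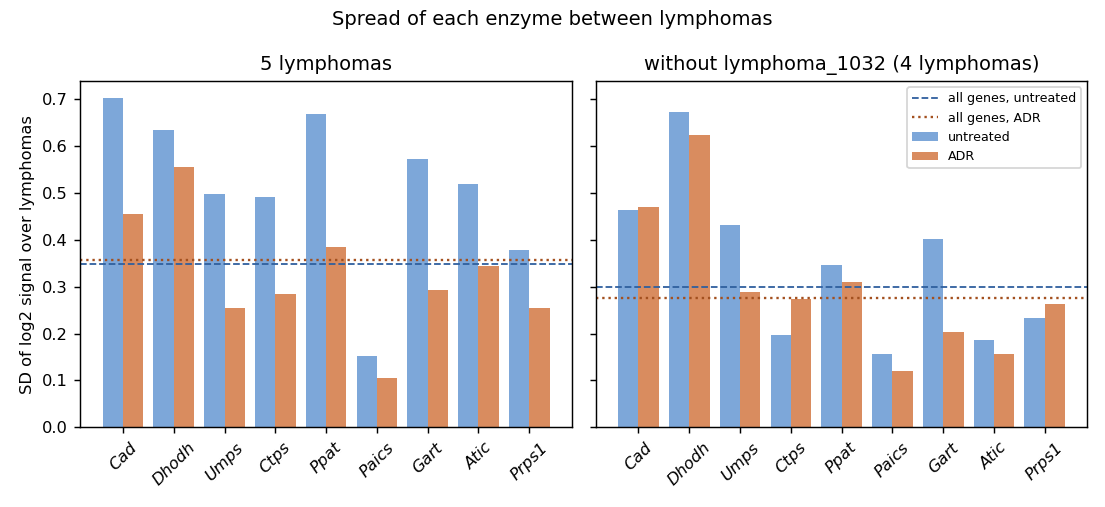
SD of the log2 signal over lymphomas for each enzyme, untreated (blue bars) and ADR (orange bars), with all 5 lymphomas at the left and without lymphoma_1032 at the right; lines give the median over all tested genes. The ADR bar is the shorter of the pair for 9 of 9 enzymes at the left and for 6 of 9 at the right.

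Paralogs of the members and the other enzymes around them were also measured. Prps2, another PRPP synthetase, had a mean difference of 0.12 ± 0.14, with -0.02 and -0.05 at its other probe sets, Impdh1, the paralog of Impdh2, of -0.06 ± 0.21 and Ctps2, another CTP synthase, of 0.09 ± 0.17. None passed the threshold, and for Prps1 and Prps2 in lymphoma_5783 the differences were -0.53 and -0.12. Of the other de novo purine and PRPP enzymes 0 of 10 passed, with 7 higher and 3 lower on average and a median of 0.08. Prpsap1, a PRPP synthetase-associated protein, was higher in all 5 lymphomas (0.24 ± 0.15), and Adsl, which acts right after Paics and again after IMP, had a difference of 0.23 ± 0.29.

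Of 17 nucleotide salvage genes 0 passed, with 8 higher and 9 lower and a median of -0.01. Dck, the kinase that salvages deoxycytidine, had the smallest unadjusted p of that list (0.00186, adjusted p = 0.565 in limma). Its signal was lower with ADR in all 5 lymphomas, and the groups did not overlap, from 9.90 ± 0.27 to 9.30 ± 0.07, a difference of -0.59 ± 0.24. Aprt, which salvages adenine, was higher in all 5 (0.38 ± 0.23), Mtap, which feeds adenine to it, had a difference of 0.39 ± 0.53, and Hprt, the hypoxanthine salvage enzyme, of -0.06 ± 0.14.

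Of 18 genes of deoxynucleotide synthesis and nucleotide kinases 0 passed, with 11 higher and 7 lower and a median of 0.06. Txnrd1, thioredoxin reductase, was higher in all 5 lymphomas (0.46 ± 0.12). Ak1, an adenylate kinase, had a difference of 0.68 ± 0.71 and Dut, the dUTPase, of -0.43 ± 0.54. Rrm2, the ribonucleotide reductase subunit of dividing cells, had -0.26 ± 0.70, Tk1, thymidine kinase, -0.28 ± 0.95, and Tyms, thymidylate synthase, -0.17 ± 0.71 at signals close to the median of the table. Rrm2 and Tk1 were lower with ADR in every lymphoma but lymphoma_4936, where they differed by 0.88 and 1.39.

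Of 13 tested genes of folate one-carbon and serine metabolism, which supplies formyl groups to Gart and Atic, 0 passed, with 8 higher and 5 lower and a median of 0.07. The mitochondrial folate enzymes Mthfd2 (-0.34 ± 0.19) and Mthfd1l (-0.25 ± 0.15) and the serine synthesis enzyme Psat1 (-0.34 ± 0.25) were lower in all 5 lymphomas. Of 15 breakdown genes 0 passed, with 8 higher and 7 lower and a median of 0.05. Ampd2, AMP deaminase, was higher in all 5 (0.39 ± 0.21), Xdh, xanthine dehydrogenase, had a difference of 0.93 ± 1.00 and the nucleotidase Nt5c of 0.20 ± 0.19. Of 10 genes of amino acid supply 0 passed, with 2 higher and 8 lower. Asns, asparagine synthetase (-0.46 ± 0.27), and Aldh18a1, of proline synthesis (-0.18 ± 0.25), were lower in all 5, and Got2, the mitochondrial aspartate aminotransferase, was higher in all 5 (0.16 ± 0.11).

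The 19 proliferation genes give a contrast in size. All 19 were lower on average and 0 passed, with a median difference of -0.46, beside 0.05 for the 9 synthesis enzymes and -0.02 for all genes. Their mean differed by 0.63 in lymphoma_4936, and by -0.65, -1.09, -0.66 and -0.60 in lymphoma_1032, lymphoma_5783, lymphoma_7890 and lymphoma_9250. In lymphoma_1032 proliferation genes were thus lower and the synthesis enzymes higher with ADR, and in lymphoma_4936 both were higher. Mki67, the Ki-67 antigen, had -0.85 ± 0.84, Kif11, a spindle motor, -0.93 ± 0.90 and Cenpa, the centromeric histone, -0.80 ± 0.38. Suv39h2, the paralog of the deleted Suv39h1, had a difference of -0.26 ± 0.72. The difference between these lists was not tested.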

How the data were processed

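RNA of 10 cultures was measured on Affymetrix mouse arrays. The authors deposited 1 log2 signal per probe set and array. Their processing notes name RMA and Partek, with versions not given in the sources used here. From the range of the values, the log base was taken as 2. RMA usually includes quantile normalization, which reduces shifts shared by most genes, yet the array medians here were not all alike. Of 45101 probe sets, 34958 had exactly 1 symbol in GEO's platform annotation, 932 several and 9147 none, and 64 were controls. Where several probe sets named a gene, the brightest on average was kept, and the gene was tested if that signal exceeded the table's median, 4.43, on at least 5 of 10 arrays (11473 genes).

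The paired model, with lymphoma as a block, was run with limma 3.58.1 (R 4.3.3) through lmFit and eBayes, and lymphomas were compared by the F test of that fit. Tests were two-sided, adjusted by Benjamini-Hochberg over the tested genes, at a threshold of 0.05. The titles give the pairing. Across genes, deviations from the group means correlated between the arrays of a lymphoma with r from 0.51 to 0.79. Precision is limited by the number of arrays. On simulated data with 11473 genes, the ADR comparison called 6% of genes given a log2 change of 0.5, 76% of those given 1 and 90% of those given 2. The lymphoma comparison called 16% of genes with a simulated SD of 0.5 and 64% of those with an SD of 1. In that simulation 11273 of the 11473 genes had no difference between lymphomas, whereas 26.9% of genes were called in the data. These rates therefore do not carry over directly to the lymphoma comparison of the data.

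Members and lists were chosen with earlier results of these data known. The text names the members, their paralogs, a fixed set of genes, the 3 smallest unadjusted p of each pathway list and the 5 genes nearest the members' mean. A gene of the fixed set is not reported here. Alternatives were a fit without the block, no filter, a stricter filter, averaged probe sets, quantile normalization, centring, a trended robust prior, array weights, other probe sets of members and each lymphoma left out. Leaving out lymphoma_1032 and lymphoma_4936 together was chosen after seeing the data. Figures used Python 3.11.15, pandas 2.3.3 and matplotlib 3.10.9.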

Additional observations from a re-analysis of the deposited data

Results flagged for a closer look

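In 2 of 27 sets of 5 values examined (untreated levels, ADR levels and differences of each of the 9 enzymes), 1 lymphoma lay far from the others; chance alone gives about 1 in 20. Both were differences in lymphoma_1032. The difference of Cad was 1.02 there and 0.14 to 0.21 in the others, a gap of 0.915 of the whole range against a critical value of 0.71. In lymphoma_1032 the second brightest Cad probe set differed by 1.01 and the dim one by -1.81. The difference of Ppat was 0.519 there and -0.30 to -0.12 in the others, a gap of 0.787 of the range.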

How the results depend on the processing

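Of 126 fitted alternatives for the ADR differences of the 9 enzymes, 114 kept their direction and 0 passed the threshold (smallest adjusted p 0.372 in limma). The fits without the block, without the filter, with the stricter filter or with the trended robust prior leave each mean difference unchanged. Centring shifted all mean differences alike, and the one nearest 0, that of Umps, went only from 0.0207 to 0.0199. Averaging left Ctps (0.0512) and Prps1 (-0.0223), with 1 probe set each, unchanged. The directions in these cases were thus fixed, and the count of directions kept says nothing about them. Of 14 other probe sets, which were not tested, 12 had the same direction. The call count stayed at 0 of all genes in the 14 alternatives; in the fit without the replicate block it was also 0, with an adjusted p of 0.99988 in limma for each enzyme. The dim Cad probe set gave -0.473, and the mean of all Cad probe sets 0.0891. Among the fitted alternatives, sign changes occurred for means near 0. Array weights gave -0.0086 for Ctps and -0.083 for Umps. Leaving out each lymphoma in turn gave -0.086 (without lymphoma_1032) to 0.115 for Ctps, -0.035 (without lymphoma_4936) to 0.216 for Dhodh, -0.131 to 0.104 for Prps1 and -0.108 (without lymphoma_1032) to 0.107 for Umps. Without lymphoma_1032 and lymphoma_4936 together, the values were -0.061 for Ctps, -0.150 for Dhodh and -0.241 for Umps. The cause was not tested.

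Of 117 alternative values for the differences between lymphomas, 95 kept their side of the threshold. Adjusted p of the limma F test was 0.0574 for Atic and 0.0538 for Gart with centred arrays, 0.0625 and 0.0529 with array weights, and 0.0535 for Gart without the filter. Ctps passed with the trended robust prior (0.0388). Leaving out each lymphoma in turn gave 0.0365 to 0.632 for Atic, 0.0278 to 0.0705 for Cad, 0.0210 to 0.141 for Dhodh, 0.0464 to 0.149 for Gart and 0.0340 to 0.0720 for Ppat, and 1179 to 2797 genes called, lowest without lymphoma_1032. Without lymphoma_1032 and lymphoma_4936 together, 432 genes were called, with 0.616 for Atic, 0.0578 for Dhodh, 0.179 for Gart and 0.104 for Ppat. These fits hold fewer arrays. Signals of dim probe sets near background limit the values of the dim Cad, Umps and Ppat probe sets.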
